A study of Phalaenopsis amabilis with 15 samples.

Results

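BAM3 (LOC110020311) and AMY3 (LOC110033066) are the chloroplast beta-amylase and the chloroplast alpha-amylase in a leaf transcriptome of Phalaenopsis, the moth orchid. They are 2 of the 21144 genes in the deposited table, and they were picked out by name with results of these data known. The values that decided the choice are not on record. Their lower levels under the short photoperiod at 20 days are taken here as its ground, so differences that include the 20-day libraries are given for these 2 genes as a description, with no test. If 40-day values also entered the choice, the tests given at 40 days are not independent of it. Young leaves at the top of the plant gave 15 RNA libraries, 3 in each of 5 groups, and every library pooled 3 plants out of 120 that were divided between the photoperiods. The control was taken at day 0 from plants that received 12 h of light daily, with days at 28 °C and nights at 25 °C. The LD_20d and LD_40d groups were taken after 20 and 40 days of 16 h of light, and SD_20d and SD_40d after 20 and 40 days of 8 h of light. All treated plants had days at 25 °C and nights at 18 °C. A treated group therefore differed from the control in day length, in temperature and in days elapsed, and these cannot be told apart. The hour of harvest is not given in the sources used here, so a change in daily timing and a change in level cannot be told apart either. In RNA from whole leaves, fewer cells of a type and less RNA per cell cannot be told apart.

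Leaf starch is laid down in chloroplasts in the light and broken down in the dark. Glucan, water dikinases phosphorylate the granule surface and loosen it. Beta-amylases then release maltose from the chain ends, debranching isoamylases remove the branches, and alpha-amylases cut within chains. In Arabidopsis, BAM3 is the leading beta-amylase of nightly breakdown in leaf mesophyll and its transcript rises in the cold. AMY3 of Arabidopsis is a chloroplast alpha-amylase that acts together with BAM1 in stressed leaves and in guard cells. Phalaenopsis fixes CO2 at night by crassulacean acid metabolism, in which the breakdown of stored carbohydrate supplies the acceptor of CO2.

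The deposited table placed BAM3 on the plus strand of scaffold NW_018164536.1, from base 74371 to 77981, with a gene length of 2022 bases in a span of 3611 bases. It placed AMY3 on the minus strand of scaffold NW_018165521.1, from base 759581 to 856727, with a gene length of 2955 bases in a span of 97147 bases. No other listed locus overlapped either gene. The loci are those of Phalaenopsis equestris, named by their best protein match, whereas the labels call the plants Phalaenopsis amabilis. The genome build is not given in the sources used here. Library totals ran from 11246777 to 14637388 counts. Leaf markers (15 loci of the Rubisco small subunit and of chlorophyll a-b binding proteins) summed to between 9254 and 63660 CPM (the usual read count scaled to a common library size) in the libraries, so the tissue carried the defining transcripts of a green leaf. Of 8 floral organ loci, the 2 AGAMOUS matches had 20 and 5 counts over all 15 libraries, and the MADS3 match had 0. The MADS2 match had 3869, and the 4 MADS16 matches had 5404, 295, 9 and 5.

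The BAM3 level was lowest in the control and highest under the long photoperiod. In control replicates 1, 2 and 3, BAM3 stood at 9.37, 17.6 and 18.6 CPM, scaled by the trimmed mean of M-values (TMM), from 115, 214 and 237 counts. In LD_20d it stood at 783, 578 and 1099 CPM, and in SD_20d at 111, 46.4 and 49.4 CPM. The 3 groups did not overlap: every SD_20d library was above every control library and below every LD_20d library. In LD_40d the level was 1714, 1799 and 839 CPM. In SD_40d it was 454, 964 and 734 CPM, from 6228 to 10536 counts. These groups overlapped, because LD_40d replicate 3 lay below SD_40d replicate 2.

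The group means of BAM3 rose in the order control (15.2 ± 5.08 CPM, SD, n = 3), SD_20d (69.1 ± 36.7), SD_40d (717 ± 255), LD_20d (820 ± 262) and LD_40d (1451 ± 531). Neighbours in this order overlapped from SD_40d upwards, so SD_40d and LD_20d, and LD_20d and LD_40d, did not differ beyond their spread. The steps from control to SD_20d and from SD_20d to SD_40d were free of overlap.

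The AMY3 level covered a narrower range. In control replicates 1, 2 and 3, AMY3 stood at 156, 122 and 143 CPM. In LD_20d it stood at 354, 240 and 306 CPM, and in SD_20d at 131, 113 and 111 CPM. Every LD_20d library lay above all control and SD_20d libraries, whereas SD_20d and the control overlapped. In LD_40d the level was 611, 598 and 385 CPM. In SD_40d it was 289, 356 and 368 CPM. All 3 LD_40d libraries were above all 3 SD_40d libraries, by a small margin for LD_40d replicate 3.

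The group means of AMY3 followed the order SD_20d (118 ± 11.4 CPM, SD, n = 3), control (140 ± 17.1), LD_20d (300.1 ± 57.1), SD_40d (338 ± 42.7) and LD_40d (531 ± 127). SD_20d and the control overlapped, as did LD_20d and SD_40d. The order thus differed from that of BAM3 at its lower end, where BAM3 had the control below SD_20d with no overlap. Within each treated group, BAM3 and AMY3 shared the extreme library at 1 end and not at the other. For both genes, LD_20d replicate 2 was the lowest of its group, SD_20d replicate 1 the highest, LD_40d replicate 3 the lowest and SD_40d replicate 1 the lowest. The highest LD_20d library was replicate 3 for BAM3 and 1 for AMY3, and the lowest SD_20d library was 2 and 3. The highest library was 2 and 1 in LD_40d, and 2 and 3 in SD_40d. In the control, replicate 1 was the lowest for BAM3 and the highest for AMY3.

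**Figure D1:**
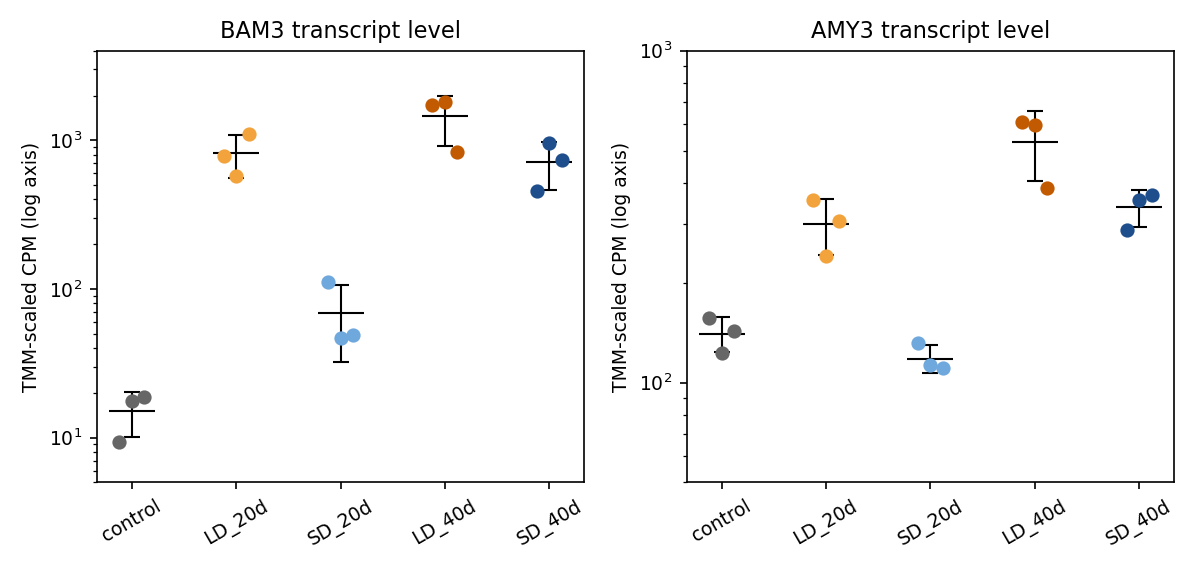
BAM3 (left) and AMY3 (right) in TMM-scaled CPM on log axes, for the 5 groups on the x axis. Points are libraries in the order of their replicate numbers, and black bars are the mean and 1 SD of 3 libraries; BAM3 ran from 9.37 to 1799 and AMY3 from 111 to 611.

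At 40 days both genes were lower under the short photoperiod, and neither difference passed the test. The groups compared hold no 20-day libraries, but the fit that set the spread included them. BAM3 averaged 717 CPM in SD_40d and 1451 CPM in LD_40d, a log2 fold change of -1.02 ± 0.41 (SE), with overlapping groups (adjusted p = 0.258, edgeR's quasi-likelihood test with Benjamini-Hochberg adjustment over 16700 genes). AMY3 averaged 338 CPM in SD_40d and 531 CPM in LD_40d, a log2 fold change of -0.65 ± 0.19, without overlap (adjusted p = 0.131). In this comparison 0.461% of all tested genes were called, meaning an adjusted p under 0.05, and 0 of the 2 starch genes. AMY3 was called with DESeq2 (adjusted p = 0.0393) and not with limma-voom (adjusted p = 0.162). By edgeR it was not called without the filter (adjusted p = 0.144) or with a replicate block (0.170). Nor was it called in a fit without the day-20 libraries (0.284) or to the 2 groups alone (0.463). For BAM3, the edgeR fit without the day-20 libraries gave an adjusted p of 0.349. Without LD_40d replicate 3, the lowest library of its group, AMY3 differed by -0.84 and was called by edgeR (adjusted p = 0.0416). Leaving out any other library of the 2 groups kept the adjusted p of AMY3 above the threshold, at up to 0.359.

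At 20 days, the comparison taken as the ground for the choice, the mean of BAM3 was 11.9-fold higher in LD_20d than in SD_20d (log2 fold change of SD_20d against LD_20d of -3.57 ± 0.45). AMY3 was 2.54-fold higher in LD_20d (-1.35 ± 0.19). There 0.862% of all tested genes were called, from which nothing is read for these 2 genes. Whether the difference between photoperiods changed from 20 to 40 days involves the 20-day libraries, so no test of it is read for BAM3 or AMY3. The interaction fit over all 16700 genes, given further below, did include them.

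Both genes were called as higher than the control at 40 days, BAM3 by far the more. BAM3 rose 95.3-fold in LD_40d (log2 fold change 6.57 ± 0.52, adjusted p = 2.173e-06, edgeR), the 4th largest of 16700 fold changes. In SD_40d it rose 47.1-fold (5.56 ± 0.50, adjusted p = 6.568e-06) and ranked 17th. AMY3 rose 3.78-fold in LD_40d (1.92 ± 0.19, adjusted p = 1.815e-05) and ranked 282nd. In SD_40d it rose 2.40-fold (1.26 ± 0.19, adjusted p = 0.000309) and ranked 798th. All 3 libraries of each 40-day group lay above all 3 control libraries for both genes. Calls were common in these comparisons: 27.5% of all tested genes in LD_40d and 38.3% in SD_40d, with 13.9% and 18.8% called as higher. Both comparisons share the 3 control libraries.

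The 20-day groups gave the following values against the same control. BAM3 was 53.9-fold above the control in LD_20d (log2 fold change 5.75 ± 0.51) and 4.54-fold above it in SD_20d (2.18 ± 0.44), without overlap in either. AMY3 was 2.14-fold above the control in LD_20d (1.10 ± 0.19), without overlap. In SD_20d it was at a log2 fold change of -0.25 ± 0.19, with overlap. The shares of all genes called were 24.0% in LD_20d and 35.1% in SD_20d.

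The means of both genes were higher at 40 than at 20 days under each photoperiod. BAM3 was 10.4-fold higher in SD_40d than in SD_20d (log2 fold change 3.38 ± 0.45) and AMY3 2.86-fold higher (1.51 ± 0.19), both without overlap. Under the long photoperiod, BAM3 was 1.77-fold higher at 40 than at 20 days (0.82 ± 0.41) with overlapping groups. AMY3 was also 1.77-fold higher (0.82 ± 0.19), and its groups did not overlap. Over all genes, 40.7% were called between the short-photoperiod times and 5.16% between the long-photoperiod times.

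Markers of leaf and of dividing cells moved with several of these comparisons, and their part in the results was not tested. The summed level of the 15 leaf markers was 49490 to 63660 CPM in control libraries. Under the long photoperiod it was 9254 to 14770 CPM at 20 days and 12160 to 15760 at 40 days, and under the short photoperiod 17440 to 21340 and 21240 to 24580. It was thus higher in the control, where BAM3 was lowest. In each treated group 12 to 15 of the 15 loci were called as lower, beside 12.6% to 19.5% of all genes. The summed level of 56 dividing-tissue loci was 4154 to 5483 CPM in SD_20d and 1838 to 2666 CPM in SD_40d. Of the 51 tested, 37 were called as lower at the later time, beside 20.7% of all genes. The same sum was 2763 to 3857 CPM in the control, 3099 to 4292 in LD_20d and 2617 to 2903 in LD_40d. Guard cell loci (17, of which 11 were tested) summed to between 93.2 and 143 CPM over all libraries, with overlapping ranges in all groups. Most of that sum came from matches of the kinase HT1, with up to 8989 counts over the 15 libraries. A KAT1 match had 1388 counts, and no other guard cell locus had more than 250. The sum thus says little about the more specific guard cell loci. Single guard cell loci moved both ways: against the control 2 rose and 2 fell in LD_20d, 4 and 3 in SD_20d, 1 and 0 in LD_40d, and 1 and 1 in SD_40d. Of all genes, 11.4% were called as higher and 12.6% as lower in LD_20d, and 17.2% and 17.9% in SD_20d. In LD_40d these shares were 13.9% and 13.6%, and in SD_40d 18.8% and 19.5%. Floral organ loci (8, of which 3 were tested) summed to 29.6 to 35.2 CPM in the control and 41.9 to 66.9 CPM in the treated groups. In each treated group 1 of the 3 rose, beside 11.4% to 18.8% of all genes.

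Compared per kilobase of gene length, BAM3 and AMY3 changed places between groups. In the control, BAM3 averaged 7.52 CPM per kilobase and AMY3 47.5. In LD_20d the levels were 406 and 102, and in LD_40d 717 and 180. The ratio of BAM3 to AMY3 per kilobase was 0.0877 to 0.210 in the control libraries, 0.603 to 1.24 in SD_20d, 2.30 to 3.96 in SD_40d, 3.19 to 4.39 in LD_40d and 3.23 to 5.25 in LD_20d. BAM3 was thus the scarcer transcript in every control library and the more abundant one in every library of LD_20d, LD_40d and SD_40d. In SD_20d the libraries lay on both sides of equality.

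BAM3 was one of 6 beta-amylase loci in the table, all tested. Of their summed level per kilobase, BAM3 took 4.87 ± 1.02% (SD, n = 3) in the control. In LD_20d and LD_40d its share was 71.9 ± 5.12% and 72.0 ± 12.2%, and in SD_20d and SD_40d 21.2 ± 8.57% and 54.7 ± 5.89%. In the control the leading locus per kilobase was the BAM7 match LOC110030672 with 40.4 ± 9.97%, and in SD_20d it was the BAM1 match LOC110038896 with 46.3 ± 6.22%. The control lead rests on the division by gene length, on which the shares and sums depend too. Without it, control means were 71.4 CPM for BAM1 LOC110038896, 56.0 for BAM8 LOC110039464 and 47.3 for BAM7 LOC110030672. Per kilobase they were 34.3, 22.9 and 62.6. BAM7 and BAM8 of Arabidopsis are nuclear proteins that carry a DNA-binding domain, and BAM1 is a chloroplast enzyme of stress and guard cells. The summed level of the family was 151 CPM per kilobase in the control and 157 in SD_20d. It was 558 in LD_20d, 975 in LD_40d and 660 in SD_40d.

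Among the other 5 beta-amylase loci, 1 rose along with BAM3 against the control. BAM1 LOC110038896 stood at 71.4 ± 11.5 CPM in the control (SD, n = 3). Its level was 214 ± 17.6 CPM in LD_20d and 380 ± 115 in LD_40d, against 150 ± 25.3 in SD_20d and 503 ± 260 in SD_40d. It rose in LD_40d by a log2 fold change of 2.41 ± 0.37 (adjusted p = 4.275e-04, edgeR) and in SD_40d by 2.82 ± 0.37 (adjusted p = 1.292e-04). In LD_20d it rose by 1.58 ± 0.36 (adjusted p = 0.00627), and in SD_20d by 1.08 ± 0.35 (adjusted p = 0.0300). The SD_20d call was lost without any 1 of control replicates 1, 2 and 3 or SD_20d replicates 1 and 3, with adjusted p-values up to 0.101. Between photoperiods this locus was not called, with a 20-day value of -0.50 ± 0.35 (adjusted p = 0.494) and a 40-day value of 0.40 ± 0.35 (adjusted p = 0.617). Its SD_40d libraries were spread widely, with replicate 1 at 203 CPM and replicates 2 and 3 at 632 and 673.

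The remaining beta-amylase loci were lower than the control or not called. BAM7 LOC110030672 fell by 2.36 ± 0.52 on the log2 scale in both LD_20d (adjusted p = 0.00559, edgeR) and SD_20d (adjusted p = 0.00382). In SD_40d it fell by 1.63 ± 0.51 (adjusted p = 0.0218). That last call was lost without control replicate 2 (adjusted p = 0.0624), control replicate 3 (0.0645) or SD_40d replicate 1 (0.0518). In LD_40d the same locus was at -0.81 (adjusted p = 0.241), with libraries from 8.95 to 55.2 CPM. BAM8 LOC110039464 fell by 0.55 and 0.54 in LD_20d and LD_40d, and by 0.56 and 0.37 in SD_20d and SD_40d (adjusted p from 0.00123 to 0.0137). Its SD_40d call was lost without control replicate 1 (adjusted p = 0.0564). BAM1 LOC110022004 and BAM7 LOC110023646 were called in none of the 8 comparisons by edgeR.

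AMY3 was one of 4 alpha-amylase loci, all tested. It took 42.5 ± 2.45% (SD, n = 3) of their summed level per kilobase in the control. In LD_20d and LD_40d its share was 62.3 ± 3.93% and 73.5 ± 3.48%, and in SD_20d and SD_40d 41.6 ± 1.76% and 64.8 ± 2.32%. AMY3 was the leading locus of this family in each of the 5 groups. The summed level was 112 CPM per kilobase in the control, 162 and 243 in LD_20d and LD_40d, and 95.8 and 176 in SD_20d and SD_40d.

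Of the other 3 alpha-amylase loci, 1 fell against the control and 2 rose slightly. AMY1.7 LOC110036786, the match of a rice alpha-amylase isozyme named 3C, fell by 1.02 in SD_20d (adjusted p = 2.826e-04, edgeR) and by 0.81 in SD_40d (adjusted p = 0.0012) against the control. In LD_20d it fell by 0.52 (adjusted p = 0.0208), a call lost without control replicate 1 (adjusted p = 0.0599), control replicate 3 (0.0583) or LD_20d replicate 2 (0.0898). In LD_40d it was at -0.35 (adjusted p = 0.0969). AMY2 LOC110036438 rose by 0.47 in SD_40d (adjusted p = 0.00586) and by 0.40 in SD_20d (adjusted p = 0.0143). The SD_20d call was lost without control replicate 1 (adjusted p = 0.0532) or SD_20d replicate 2 (0.0534). In LD_20d AMY2 rose by 0.34 (adjusted p = 0.0426), and no single library of the 6 could be left out without losing that call. In LD_40d it was at 0.30 (adjusted p = 0.065). LOC110022508, which matches a bacterial alpha-amylase, was called in SD_40d only (0.29, adjusted p = 0.0396), and 5 of the 6 single-library omissions ended that call, all but that of control replicate 3.

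**Figure D2:**
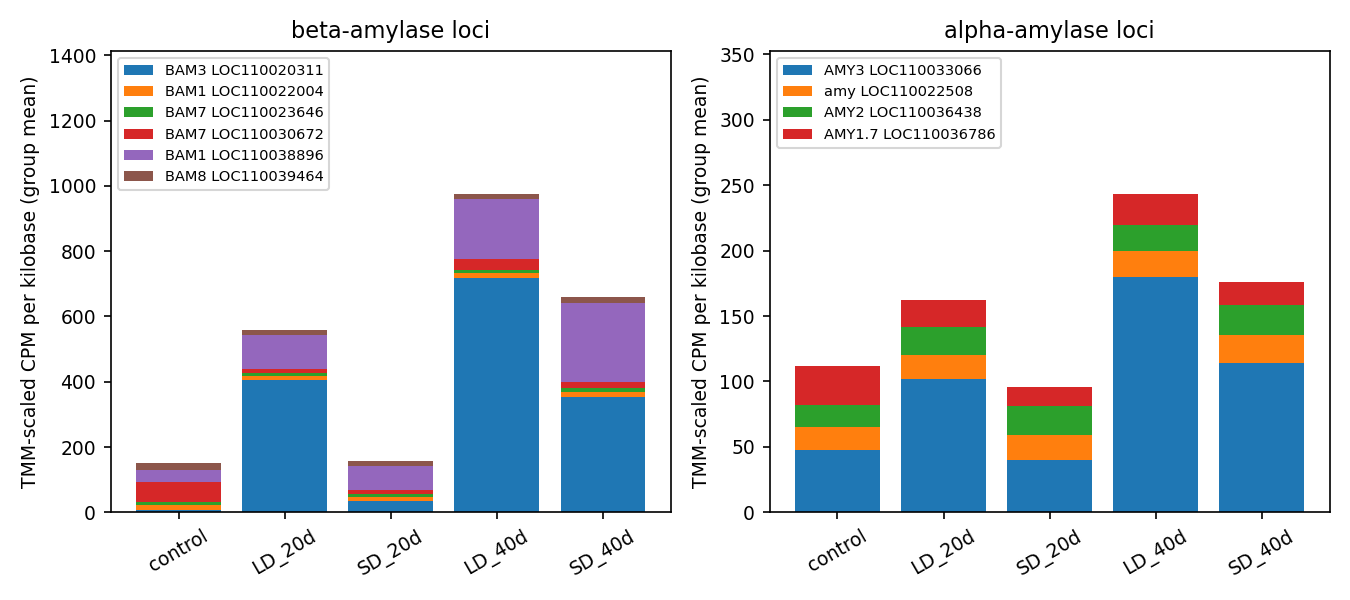
Group means of the 6 beta-amylase loci (left) and the 4 alpha-amylase loci (right) as stacked bars, in TMM-scaled CPM per kilobase of gene length, with the 5 groups on the x axis and 3 libraries behind each mean. BAM3 and AMY3 form the lowest segment of each bar; BAM3 went from 4.87% of its family in the control to 72.0% in LD_40d, and AMY3 from 42.5% to 73.5%.

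The other starch breakdown genes were 31 loci that include the amylases above but neither BAM3 nor AMY3. The list was made by words in the protein descriptions. It therefore holds the BAM7 and BAM8 matches, named after nuclear proteins of Arabidopsis. It also holds ISA1 and ISA2, known there for trimming glucan during synthesis. Counts and medians of the list, here and below, thus do not describe breakdown enzymes alone. These 31 loci gave few calls between photoperiods in the fit to all libraries. At 20 days 1 was called as lower in SD_20d and 0 as higher, against 0.695% of all genes called as lower, and their median log2 fold change was -0.30 beside 0.02 over all genes. The gene called was the H isozyme of alpha-glucan phosphorylase (LOC110022055), the cytosolic form, at 470 ± 32.7 CPM in LD_20d and 287 ± 23.9 in SD_20d (log2 fold change -0.71 ± 0.15, adjusted p = 0.0405). Without any 1 of LD_20d replicates 1 and 3 or SD_20d replicates 1, 2 and 3, the count was 0, and without LD_20d replicate 2 it was 5. At an unadjusted p under 0.05, 12 of the 31 passed, and DESeq2 called 6. Same-numbered libraries of LD_20d and SD_20d had deviations correlated at 0.157 to 0.51. The lowest of these, for replicate 3, was below the 0.195 between LD_20d replicate 2 and SD_20d replicate 3. Whether the numbers pair the libraries is thus uncertain, and the count is also given with the replicate number as a block. It was 0 with the block in the fit to all 15 libraries, where phosphorylase H had an adjusted p of 0.0650. With the block in a fit to the 6 libraries of these groups, chosen after seeing the data, 15 of 30 fell and 0 rose, beside 8.67% of all genes called as lower. At 40 days edgeR called 0 of the 31, DESeq2 and limma-voom also 0, and 2 passed an unadjusted p under 0.05; without SD_40d replicate 1, edgeR called 5. The median at 40 days was 0.03 beside -0.02 over all genes.

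Against the control, these 31 genes gave calls in both directions. In LD_20d 3 rose and 5 fell, and in SD_20d 2 rose and 10 fell, beside 11.4% and 12.6% of all genes higher and lower in LD_20d, and 17.2% and 17.9% in SD_20d. Their median log2 fold change was 0.02 in LD_20d, where 18 of the 31 were positive, and -0.28 in SD_20d, beside 0.02 over all genes in each. In LD_40d 10 rose and 1 fell, and in SD_40d 11 rose and 4 fell, beside 13.9% of all genes higher and 13.6% lower in LD_40d, and 18.8% and 19.5% in SD_40d. BAM7 LOC110030672, BAM8 and ISA1 were among the genes that fell in LD_20d, SD_20d and SD_40d, and BAM8 was the 1 that fell in LD_40d. ISA2 was among those that rose in LD_20d, LD_40d and SD_40d. The medians were 0.20 in LD_40d and 0.30 in SD_40d, beside -0.01 and -0.05 over all genes. ISA2 (LOC110033285), an isoamylase known in Arabidopsis as part of the complex that trims glucan during synthesis, rose by 1.67 ± 0.26 in LD_40d (adjusted p = 4.965e-04, edgeR) and 1.94 ± 0.26 in SD_40d (adjusted p = 1.44e-04). It also rose by 0.96 ± 0.26 in LD_20d (adjusted p = 0.0160), and in SD_20d it was at 0.50 (adjusted p = 0.144). ISA1 (LOC110024758), the partner of ISA2 in that complex, fell by 0.98 ± 0.17 in LD_20d (adjusted p = 0.00148) and by 1.66 ± 0.18 in SD_20d (adjusted p = 3.036e-05). In SD_40d it fell by 0.61 ± 0.17 (adjusted p = 0.0133), and in LD_40d it was at -0.34 (adjusted p = 0.162). The phosphoglucan, water dikinase match GWD3 LOC110031215 rose by 0.75 ± 0.17 in LD_40d (adjusted p = 0.00477) and by 0.65 ± 0.17 in SD_40d (adjusted p = 0.00804). A further GWD3 match, LOC110018323, rose by 0.62 ± 0.15 in LD_40d (adjusted p = 0.00923) and by 0.71 ± 0.15 in SD_40d (adjusted p = 0.00325). GWD3 LOC110018866 was also called as higher in LD_40d (adjusted p = 0.04996) and SD_40d (adjusted p = 0.0163). The table holds 5 GWD3 matches, between which reads may have been divided. The LD_20d count of 8 calls became 5 without any 1 of the 3 control libraries or LD_20d replicate 3, the SD_20d count of 12 became 7 without SD_20d replicate 2 or 3, and the LD_40d count of 11 became 7 without control replicate 2 or LD_40d replicate 2.

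From SD_20d to SD_40d, 15 of the 31 breakdown genes rose and 1 fell, beside 20.1% and 20.7% of all genes. Phosphorylase H rose by 0.97 ± 0.15 (adjusted p = 7.338e-04, edgeR), GWD3 LOC110018323 by 1.23 ± 0.16 (adjusted p = 6.501e-04), GWD3 LOC110031215 by 1.02 ± 0.17 (adjusted p = 8.773e-04), and BAM1 LOC110038896 by 1.74 ± 0.36 (adjusted p = 0.00248). Under the long photoperiod 3 rose and 0 fell, beside 2.17% and 2.99% of all genes. They were the debranching enzyme ISA3 (LOC110025087, 0.80 ± 0.19, adjusted p = 0.0407), GWD3 LOC110031215 (0.67 ± 0.17, adjusted p = 0.0419) and the phosphoglucan phosphatase DSP4 (LOC110019144, 0.72 ± 0.19, adjusted p = 0.0467). That count of 3 became 14 without LD_40d replicate 3, the library low in BAM3 and AMY3. It became 0 without LD_20d replicate 2, LD_20d replicate 3 or LD_40d replicate 1, and 1 without LD_40d replicate 2. The difference between photoperiods in these changes over time was tested for the 31 breakdown and 12 synthesis genes as an interaction. By edgeR it was called for 0 of these 43 genes and 0 of all 16700 genes, and 7 of the 43 passed an unadjusted p under 0.05 beside 1832 of the 16700.

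Starch synthesis genes were 12 loci. Between photoperiods edgeR called 0 of them at 20 days, where all 12 had a negative log2 fold change with a median of -0.36, 6 passed an unadjusted p under 0.05, and DESeq2 called 4 and limma-voom 0. Without LD_20d replicate 2, edgeR called 2. With the replicate block it called 0 in the fit to all libraries, and 7 of the 12, all lower, in the fit to LD_20d and SD_20d alone. At 40 days edgeR, DESeq2 and limma-voom each called 0, 2 passed an unadjusted p under 0.05, and edgeR called 2 without SD_40d replicate 1. Against the control 1 rose and 1 fell in LD_20d, 1 rose and 6 fell in SD_20d, 3 rose and 1 fell in LD_40d, and 4 rose and 1 fell in SD_40d. In the same order 16.7%, 58.3%, 33.3% and 41.7% of the 12 were called, beside 24.0%, 35.1%, 27.5% and 38.3% of all genes. The LD_40d count of 4 calls became 2 without control replicate 2, and the SD_40d count of 5 became 2 without control replicate 2, SD_40d replicate 2 or SD_40d replicate 3. From SD_20d to SD_40d 9 of the 12 rose and 0 fell, beside 20.1% and 20.7% of all genes. From LD_20d to LD_40d edgeR called 1, the plastid phosphoglucomutase PGMP LOC110026286. Without LD_40d replicate 3 it called 4, and without LD_20d replicates 2 or 3, or LD_40d replicates 1 or 2, it called 0.

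Of the synthesis genes, 2 moved in every treated group. The starch synthase SS4 (LOC110022663), known for starting granules, was at 26.4 ± 2.95 CPM in the control and rose by 2.60 and 3.18 in LD_20d and LD_40d, and by 1.80 and 2.89 in SD_20d and SD_40d (adjusted p from 2.024e-06 to 1.481e-04, edgeR). GPT2 (LOC110032129), which carries glucose 6-phosphate into plastids, was at 654 ± 35.9 CPM in the control and fell by 2.91 and 2.65 in LD_20d and LD_40d, and by 2.93 and 2.52 in SD_20d and SD_40d (adjusted p from 3.002e-06 to 6.723e-06). APS1 (LOC110030299), the small subunit of ADP-glucose pyrophosphorylase, rose from 161 ± 46.2 CPM in SD_20d to 1170 ± 713 in SD_40d (2.86 ± 0.45, adjusted p = 8.23e-04).

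**Figure D3:**
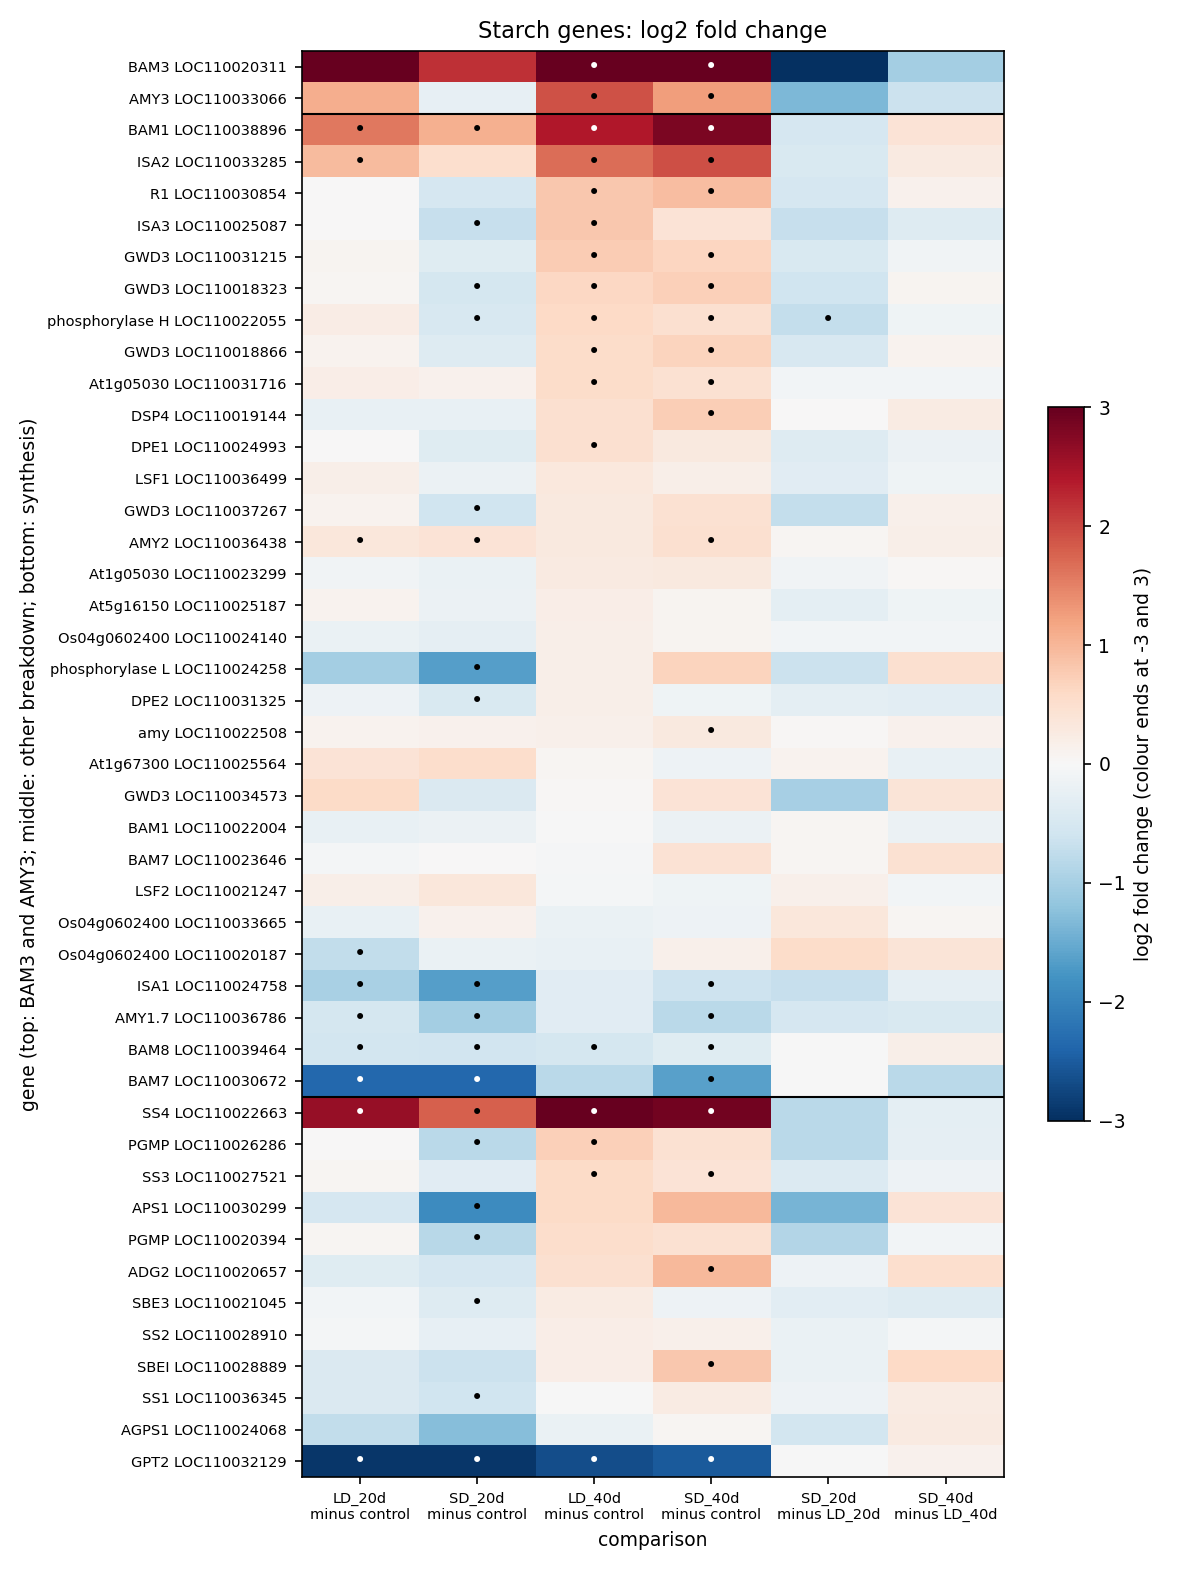
Log2 fold change of BAM3 and AMY3 (top), 31 other starch breakdown genes (middle) and 12 synthesis genes (bottom) in 6 comparisons on the x axis; colour ends at -3 and 3, so larger changes share the end colour. Dots mark an adjusted p under 0.05 (edgeR); BAM3 and AMY3 carry none in comparisons with 20-day libraries because no test is given there, and in the comparison at 40 days because neither passed.

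By the measure of likeness used here, the genes whose pattern was most like that of BAM3 were transcription factors of the clock and of day length in 4 of 5 cases. Likeness was the root mean square (rms) difference between the log2 CPM of 2 genes over the 15 libraries, each centred on its own mean, among 11518 genes. It is a description, and the libraries share their groups. The nearest was RVE1 (LOC110020906), a REVEILLE factor of the morning clock, with an rms difference of 0.917, where BAM3 itself had an rms of 2.55 about its mean. RVE1 stood at 2.24 CPM in the control, at 98.5 and 143 in LD_20d and LD_40d, and at 26.9 and 58.5 in SD_20d and SD_40d. Next came CDF2 (LOC110019467, 0.963), PP2C06 (LOC110022579, 1.14), CDF1 (LOC110018623, 1.145) and RVE7 (LOC110021130, 1.22). CDF1 and CDF2 are cyclic Dof factors, known in Arabidopsis as repressors of CONSTANS and FT, and PP2C06 is a protein phosphatase. CDF2 stood at 5.14 CPM in the control, at 54.6 and 143 in LD_20d and LD_40d, and at 17.5 and 77.8 in SD_20d and SD_40d. AMY3 was the 80th gene in likeness to BAM3, with an rms difference of 1.85, whereas BAM3 was the 11246th of 11518 in likeness to AMY3. The rms difference is not scaled for range, and BAM3 had an rms of 2.55 about its mean beside 0.829 for AMY3. These ranks therefore reflect the range of each gene as well as the shape of its pattern. With a Pearson correlation in place of the rms difference, 1 of the 5 genes named for BAM3 was again among the nearest 5.

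The genes most like AMY3 were of other kinds. The nearest was FD2 (LOC110030958), a chloroplast ferredoxin that carries electrons from photosystem I, with an rms difference of 0.219 against an rms of 0.829 for AMY3 itself. FD2 stood at 694 CPM in the control, at 1105 and 1843 in LD_20d and LD_40d, and at 500.2 and 1331 in SD_20d and SD_40d. The others were the match of a bacterial methyltransferase, SAV_474 (LOC110020484, 0.251), the glycosyltransferase UGT91C1 (LOC110037832, 0.257), the hydrolase match hdhd3 (LOC110027777, 0.290) and an L-aspartate oxidase (LOC110022989, 0.292), the enzyme that opens plastid NAD synthesis. By Pearson correlation, 2 of the 5 genes named for AMY3 were again among the nearest 5.

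**Figure D4:**
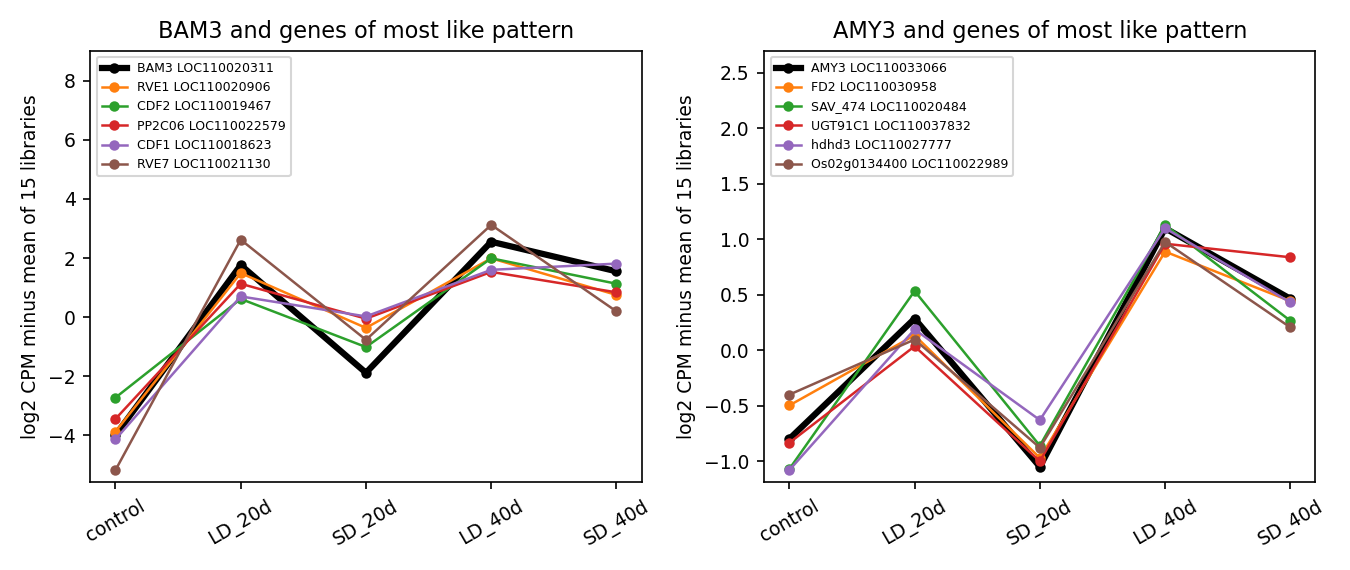
Group means of log2 CPM minus each gene's mean over 15 libraries (y axis) in the 5 groups (x axis), for BAM3 with its 5 genes of most like pattern (left) and for AMY3 with its 5 (right). Lines join the groups to guide the eye; BAM3 went from -3.99 in the control to 2.55 in LD_40d, and AMY3 from -1.05 in SD_20d to 1.10 in LD_40d.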

How the data were processed

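The authors deposited 1 table of 21144 genes with a read count and an FPKM value for each of 15 libraries, per the file headers. The deposited FPKM follow the count divided by gene length and library total within 0.01 reads for 21143 genes, BAM3 and AMY3 among them, and served for that check alone. Tools listed in the submitters' processing notes, with no roles, are HISAT2 2.0.5, HTSeq 0.9.1, cutadapt 1.15 and DESeq 1.30.0. The strand setting of the counting is not given in the sources used here. Totals were 11246777 to 14637388 counts.

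The test was the quasi-likelihood F test of edgeR 4.0.16 (R 4.3.3), after TMM scaling and filterByExpr, with group means as the only terms and the 15 libraries fitted together. Of all genes, 1689 had no count and 16700 passed the filter, BAM3 and AMY3 included. Benjamini-Hochberg adjustment ran over these 16700 genes, and called means an adjusted p under 0.05. Each SE was derived from the fold change and its F value. The code was checked on simulated counts. Log2 CPM for likeness used a prior count of 2. Alternatives were DESeq2 1.42.0, limma-voom (limma 3.58.1), no filter, a replicate block, the 2 groups alone, omission of the day-20 libraries and of each library in turn.

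Named were both genes, every other amylase locus, up to 6 called starch genes with the smallest adjusted p in each comparison, and the 5 genes of most like pattern with a mean log2 CPM of at least 2. Starch lists were found by words in the protein descriptions, which 20054 genes have. The genes and lists were chosen with earlier results of these data known. The labels give no sequencing batch or date. Of 10 pairs of groups, 1 had every same-numbered pair of libraries correlated above 0.1 in its deviations: LD_20d with SD_20d, at 0.157 to 0.51. Over all groups, 25 of 60 pairs of different number were also above 0.1, up to 0.384, beside 10 of 30 pairs of the same number. A block in a fit to LD_20d and SD_20d alone was added after seeing the data. It leaves few residual degrees of freedom. The labels do not say what a number shares. Levels between genes are per kilobase of deposited gene length.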

Additional observations from a re-analysis of the deposited data

Results flagged for a closer look

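The mean of AMY3 was above the control in LD_20d, and below it with overlapping libraries in SD_20d. Its log2 fold change against the control was 1.10 in LD_20d and -0.25 in SD_20d, a difference of -1.35. No test of the difference is given, since that comparison is taken as the ground on which the gene was picked, and both values share the 3 control libraries.

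The H isozyme of alpha-glucan phosphorylase (LOC110022055) had fold changes of opposite sign against the control at 20 days. Its log2 fold change was 0.23 in LD_20d, which was not called (adjusted p = 0.278, edgeR), and -0.48 in SD_20d, which was (adjusted p = 0.0203). Between the photoperiods the difference of -0.71 was called by edgeR's quasi-likelihood test (adjusted p = 0.0405). Over the alternatives run, the adjusted p ranged from 3.643e-04 with DESeq2 to 0.237 without SD_20d replicate 2. Groups of 3 libraries were not searched for single outlying values.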

How the results depend on the processing

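No fold change of BAM3, AMY3 or the other single genes followed here reversed its direction in any alternative run. Counts of called genes were compared by their size alone, so direction was not checked for them. BAM3 and AMY3 stayed called at 40 days against the control in every alternative. Without single libraries, BAM3 kept log2 fold changes of 6.32 to 6.85 in LD_40d and 5.29 to 5.77 in SD_40d, and AMY3 of 1.81 to 2.11 and 1.16 to 1.35. AMY3 in SD_40d against LD_40d was at -0.64 with DESeq2 and called (adjusted p = 0.0393), and without single libraries it ranged from -0.84 to -0.54. It was not called with limma-voom, without the filter, with the replicate block, without the day-20 libraries or with the 2 groups alone. Calls among the 31 breakdown genes were 6 with DESeq2, 0 with the replicate block, 2 with the 2 groups alone and 15 with both, an alternative chosen after seeing the data, for SD_20d against LD_20d. For LD_40d against LD_20d they were 9, 0 and 0. Calls among the 12 synthesis genes were 4 with DESeq2, 2 with the 2 groups alone and 7 with the replicate block in that fit for SD_20d against LD_20d, and 3 without the day-20 libraries for SD_40d against the control. For LD_40d against LD_20d they were 3 with DESeq2 and 0 with limma-voom, with the replicate block and with the 2 groups alone. Without single libraries, breakdown calls were 0 to 5 between photoperiods at 20 and at 40 days, 5 to 6 in LD_20d, 7 to 11 in SD_20d and 7 to 13 in LD_40d against the control, and 0 to 14 for LD_40d against LD_20d. Synthesis calls were 0 to 2 between photoperiods at 20 and at 40 days, 2 to 5 in LD_40d and 2 to 6 in SD_40d against the control, and 0 to 4 for LD_40d against LD_20d. Apart from the omitted libraries, the cause of these shifts was not tested. Apart from LD_20d with SD_20d, where pairing is uncertain, replicate numbers did not pair the libraries, with correlations of deviations from -0.35 to 0.35. With 3 libraries per group, the spread between libraries rather than the count sets the precision of BAM3 and AMY3, whose lowest library count was 115.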
